A study of Homo sapiens with 6 samples.

Results

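Aminoacyl-tRNA synthetases attach each amino acid to its tRNA. Human cells use separate sets of these enzymes in the cytosol and in mitochondria, most of them encoded by separate nuclear genes, and the symbols of the mitochondrial enzymes end in 2. The 38 genes described here are 17 genes of cytosolic synthetases, 16 genes of mitochondrial synthetases, 2 genes (GARS1 and KARS1) whose products serve both compartments, and the 3 scaffold genes AIMP1, AIMP2 and EEF1E1. They were listed by gene symbol, and all 38 were found once each among the 20308 genes of the tables. The question was whether the cytosolic and the mitochondrial sets differed in LNCaP-AI cells when METTL1, a methyltransferase that places N7-methylguanosine (m7G) on tRNA and other RNA, was silenced. Several cytosolic synthetases and the scaffold proteins form one large particle in human cells, the multi-synthetase complex. Many cytosolic synthetase genes are known targets of ATF4, the transcription factor of the amino acid response, which binds a composite element called the C/EBP-ATF response element.

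RNA was sequenced from 3 libraries of LNCaP-AI cells carrying a lentiviral hairpin against METTL1 (shMETTL1) and from 3 libraries of LNCaP-AI cells carrying a scrambled hairpin (shscramble). LNCaP-AI is an androgen-independent derivative of the LNCaP prostate cancer line and serves as a model of castration-resistant prostate cancer, and both groups were grown under androgen deprivation. The series' design text describes stable silencing by lentiviral constructs, gives no delivery for the scrambled hairpin, and neither it nor the study's methods say whether either line is a single clone. The study's methods speak in general of biological replicates without naming these libraries, and the labels name no separate cultures for either group, so p-values measure the spread between these libraries, which may be technical.

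Each library has a value in FPKM (sequenced fragments per unit of transcript length and of depth, a level that can be compared between genes) and an estimated count for each gene. METTL1 was at 8.35, 10.5 and 8.18 FPKM in shMETTL1 libraries, against 13.9, 18.5 and 21.0 FPKM in shscramble libraries (log2 fold change of the counts -1.36 ± 0.37 SE, edgeR adjusted p = 0.0368). On FPKM the log2 fold change was -0.93 (limma adjusted p = 0.127), with a shMETTL1 mean at 50.7% of shscramble. The targeted gene thus followed the labels in direction, and passed an adjusted p of 0.05 by counts and not by FPKM. Library totals lay between 3389897 and 3604835 estimated counts. Of 7 luminal prostate markers, including KLK3 and KRT8, all were present, and their summed level was 1351 to 1532 FPKM in shMETTL1 libraries and 1824 to 1878 FPKM in shscramble libraries. Of 4 leukocyte markers PTPRC and CD3E were listed at 0 in every library, and the sum of the list, nearly all of it CD68, was 5.997 to 8.11 FPKM in shMETTL1 libraries and 11.8 to 16.8 FPKM in shscramble libraries. Basal, fibroblast and endothelial marker sums overlapped between the groups, and the part of these marker differences in the results was not tested. In bulk RNA fewer cells of a type and less RNA per cell cannot be told apart. The second shscramble library stood apart from the others: without it edgeR called 1989 genes (17.5% of those tested) in place of 712.

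By estimated counts WARS1 and GARS1, the tryptophan and glycine enzymes, were higher in shMETTL1 libraries at 2.03-fold and 1.74-fold. Another 6 cytosolic enzymes and the scaffold gene AIMP2 were 1.32- to 1.5-fold higher by counts, and no cytosolic enzyme was called lower. For NARS1, among these 6, the FPKM groups overlapped, with a shMETTL1 mean at 98.6% of shscramble. No mitochondrial enzyme was called higher. By counts TARS2 and FARS2, the mitochondrial threonine and phenylalanine enzymes, fell to 0.59 and 0.52 of shscramble, and the FPKM groups of TARS2 overlapped. Counts were tested by the quasi-likelihood test of edgeR over the 11248 genes that passed its filter on low counts, with Benjamini-Hochberg adjustment, and an adjusted p under 0.05 made a call. All 38 genes passed that filter. Among all genes tested 6.33% were called, 2.68% higher and 3.65% lower, and among the 38 genes 9 were called higher and 2 lower. Of the 17 cytosolic genes 7 were called, all higher. Of the 16 mitochondrial genes 2 were called, both lower. The mitochondrial genes were at lower levels, with a median of the mean FPKM of 15.4, against 77.1 for the cytosolic genes. A fold change of like size could therefore miss the threshold. MARS2, at a log2 fold change of 0.46 ± 0.19 SE, was not called, while YARS1, at 0.40 ± 0.10 SE, was. The part of the level in these numbers of calls was not tested.

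The calls depended on which values were tested and on single libraries. By limma on log2(FPKM + 0.5) none of the 38 genes was called, where 15 of 12156 genes (0.123%) were, although before adjustment 13 of the 38 passed a p of 0.05 with higher values and 2 with lower, against 7.37% and 6.8% of all genes. When each library was left out in turn, edgeR called 4, 3 and 3 of the 38 genes without shMETTL1 replicates 1, 2 and 3, where it called 2.63%, 2.59% and 2.87% of all genes. Without shscramble replicates 1, 2 and 3 it called 8, 14 and 2 of the 38, where it called 3.89%, 17.5% and 2.37% of all genes, so the number of members called was highest and lowest in the same fits as the share of all genes. GARS1 and WARS1 were called each time. Without shscramble replicate 2 all 11 calls held, and AARS1, FARSA and MARS2 were called higher as well. By limma on FPKM without that library, a fit added after seeing the data, AIMP2, GARS1 and WARS1 were called, where 1.56% of all genes were. Without shscramble replicate 1 the calls of AIMP2, IARS1 and YARS1 were lost. Beside GARS1 and WARS1, MARS1 and TARS2 were called without shMETTL1 replicate 1, TARS1 was called without shMETTL1 replicate 2 and without shMETTL1 replicate 3, and no other gene was called without shscramble replicate 3.

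**Figure D1:**
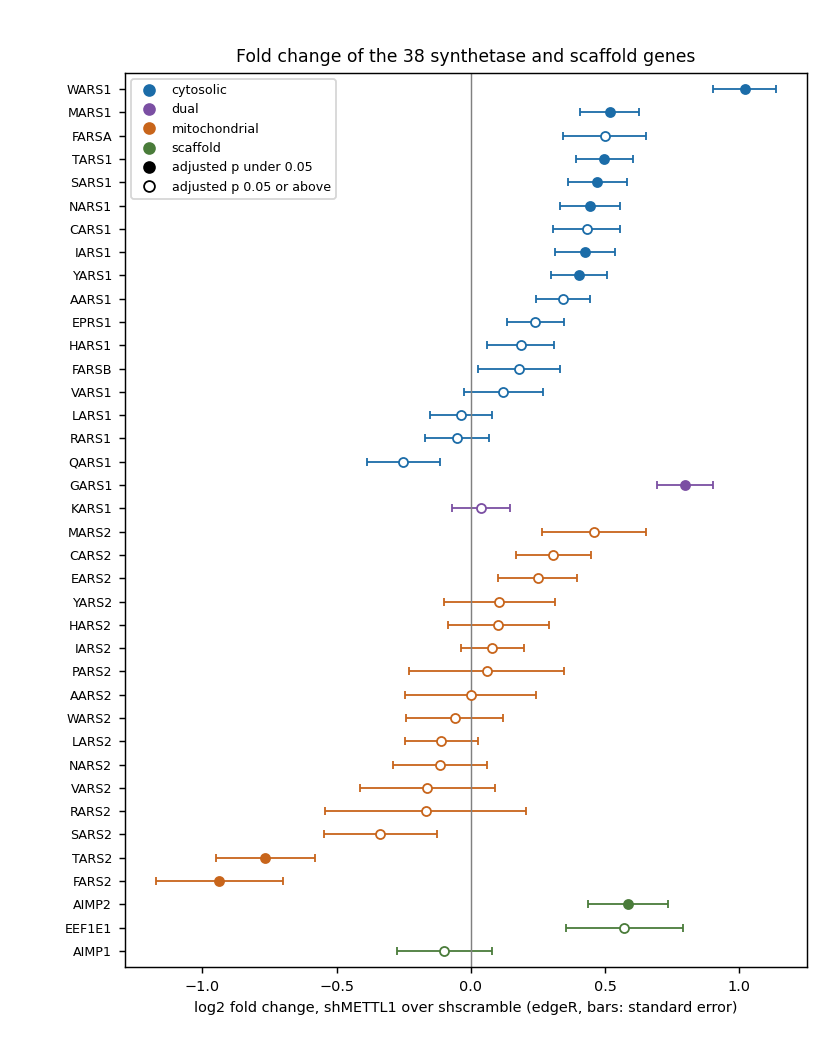
Log2 fold change of the estimated counts, shMETTL1 over shscramble, for each of the 38 genes (edgeR; bars are standard errors), coloured by class, with filled points for an adjusted p under 0.05. Of the cytosolic genes 14 of 17 lie to the right of 0, while 7 of the 16 mitochondrial genes do, and the filled mitochondrial points, TARS2 and FARS2, are the lowest values drawn.

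Sequence upstream of these genes was searched for TGATGNAA, the core of the C/EBP-ATF response element, on both strands of RefSeq promoter windows (GRCh38.p14; 250 bases before to 50 after the start, 300 in all). Of the 38 genes 33 had a window, and 8 of these (24.2%) held the motif, against 3.62% of all 35116 windows and 2.61% of 9125 tested genes with a window. The motif was in 6 of 14 cytosolic windows, in the GARS1 window of the 2 dual genes, in 1 of 14 mitochondrial windows and in 0 of 3 scaffold windows. Of the 8 genes called higher that had a window, 5 held it. The 8 matches are shown because 7 of them lie at cytosolic or dual genes, each as 30 bases 5′ to 3′ on the strand that reads TGATGNAA, with the motif in capitals.
TARS1, chr5:33440956-33440985, minus strand: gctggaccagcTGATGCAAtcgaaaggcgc
GARS1, chr7:30594834-30594863, minus strand: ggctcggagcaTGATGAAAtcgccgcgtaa
IARS1, chr9:92293692-92293721, plus strand: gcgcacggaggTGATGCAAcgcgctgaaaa
CARS1, chr11:3057407-3057436, plus strand: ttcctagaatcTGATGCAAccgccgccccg
MARS1, chr12:57488053-57488082, minus strand: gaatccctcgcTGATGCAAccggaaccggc
AARS1, chr16:70289675-70289704, plus strand: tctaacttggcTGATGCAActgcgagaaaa
NARS1, chr18:57621804-57621833, minus strand: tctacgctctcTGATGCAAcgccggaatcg
YARS2, chr12:32756076-32756105, minus strand: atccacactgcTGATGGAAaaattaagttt

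In 6 of the 7 cytosolic and dual genes the motif read TGATGCAA, and in GARS1 TGATGAAA. The mitochondrial match, in YARS2, read TGATGGAA. The matches in TARS1, GARS1, IARS1, CARS1, MARS1 and NARS1 began between positions -33 and 14 relative to the annotated start, while those in AARS1 and YARS2 began at -187 and -197. WARS1, SARS1 and AIMP2, all called higher, had a window without these letters. A match is a description of sequence, and binding was not measured here.

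Among the cytosolic enzymes WARS1, the tryptophanyl-tRNA synthetase, changed most. It was at 111, 81.8 and 92.6 FPKM in shMETTL1 libraries, against 36.0, 55.9 and 36.9 FPKM in shscramble libraries. The groups did not overlap, and the second shscramble library was the closest to shMETTL1. The log2 fold change of the counts was 1.02 ± 0.12 SE (edgeR adjusted p = 0.000122; 7.15e-06 to 0.00286 when each library was left out). On FPKM it was 1.16 by limma (adjusted p = 0.0643; 2.07e-11 to 0.148 over all alternatives). GENCODE release 29 places WARS1 on chromosome 14 at 100333788 to 100376805 (GRCh38, minus strand). There 6.06% of its exon bases overlap the antisense gene AL157871.4, which is not among the genes measured. WDR25, which was not called (log2 fold change 0.55 ± 0.44 SE, edgeR adjusted p = 0.497), overlaps 4.51%.

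MARS1 charges both initiator and elongator tRNA with methionine and sits in the multi-synthetase complex. It was at 108, 117 and 138 FPKM in shMETTL1 libraries, against 98.6, 78.7 and 84.8 FPKM in shscramble libraries. Every shMETTL1 value was above every shscramble value, with a log2 fold change of the counts of 0.52 ± 0.11 SE (edgeR adjusted p = 0.0101). Within GENCODE exons, 7.38% of MARS1 bases overlap ARHGAP9, which was not among the genes edgeR tested. DDIT3, a stress-induced transcription factor gene that was itself higher (log2 fold change 1.15 ± 0.23 SE, edgeR adjusted p = 0.00727), overlaps 5.05%. Whether reads were counted by strand is not given in the sources used here. Reads of these stretches may therefore belong to MARS1 or to the overlapping gene.

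TARS1, the threonine enzyme, was at 207, 176 and 168 FPKM in shMETTL1 libraries, against 128, 112 and 128 FPKM in shscramble libraries (log2 fold change of the counts 0.50 ± 0.11 SE, edgeR adjusted p = 0.0117). SARS1, which charges both serine and selenocysteine tRNA with serine, was at 167, 153 and 153 FPKM in shMETTL1 libraries, against 99.4, 99.3 and 111 FPKM in shscramble libraries (0.47 ± 0.11, adjusted p = 0.0183). Neither gene had a shscramble library within the shMETTL1 range.

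IARS1, the isoleucine enzyme and another complex member, was at 202, 181 and 161 FPKM in shMETTL1 libraries, against 116, 141 and 127 FPKM in shscramble libraries (log2 fold change of the counts 0.43 ± 0.11 SE, edgeR adjusted p = 0.0337). YARS1, the tyrosine enzyme, was at 93.5, 93.2 and 86.3 FPKM in shMETTL1 libraries, against 71.9, 71.2 and 74.8 FPKM in shscramble libraries (0.40 ± 0.10, adjusted p = 0.0315). Both had groups that did not overlap, and both calls were lost in 5 of 6 fits that left out a library, with adjusted p up to 0.147 and 0.157.

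NARS1, the asparagine enzyme, had the highest mean FPKM of the 38 genes over the 6 libraries, although GARS1 was above it in shMETTL1 libraries (273 and 226 FPKM on average). It was higher by count and not by FPKM. Its estimated counts were 2217, 2061 and 1975 in shMETTL1 libraries, against 1522, 1389 and 1511 in shscramble libraries (log2 fold change 0.44 ± 0.11 SE, edgeR adjusted p = 0.0276). In FPKM it was at 224, 187 and 266 in shMETTL1 libraries, against 311, 141 and 235 in shscramble libraries, so that the groups overlapped widely (limma log2 fold change 0.04, adjusted p = 0.963; 0.00336 to 0.977 over all alternatives). Without shscramble replicate 2 the FPKM fold change turned negative, at -0.27. The number of counts per FPKM of NARS1 was 9.89, 11.04 and 7.43 in shMETTL1 libraries and 4.89, 9.86 and 6.44 in shscramble libraries, a quantity that would be the same in each library if the assumed transcript length and the scaling did not change. A difference above 0.25 on the log2 scale between the fold change of the counts and that of FPKM was found for 3 of the 38 genes, NARS1, TARS2 and AIMP1, and for 18.6% of 11237 genes that both fits tested.

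**Figure D2:**
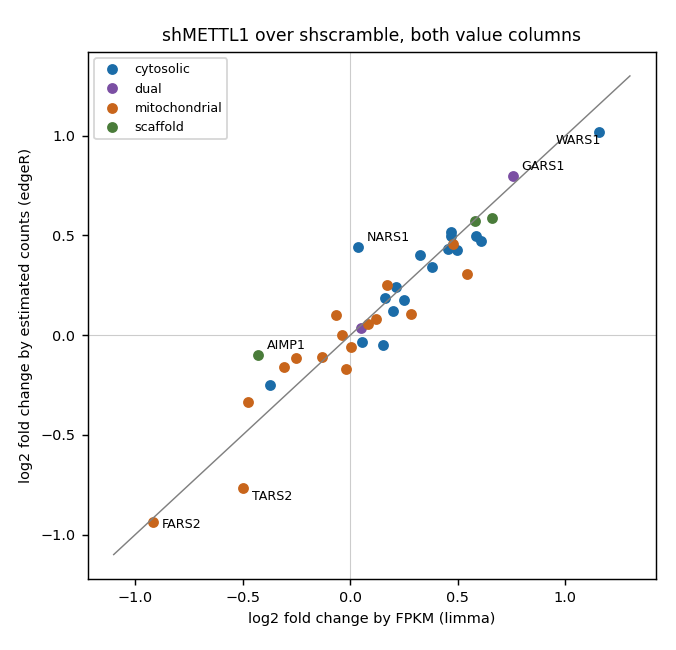
Log2 fold change by FPKM (limma, horizontal) against that by estimated counts (edgeR, vertical), shMETTL1 over shscramble, for the 38 genes, with the line of equal values. Most genes lie near the line, NARS1 lies above it at 0.04 by FPKM and 0.44 by counts, and TARS2 lies below it at -0.50 and -0.77.

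**Figure D3:**
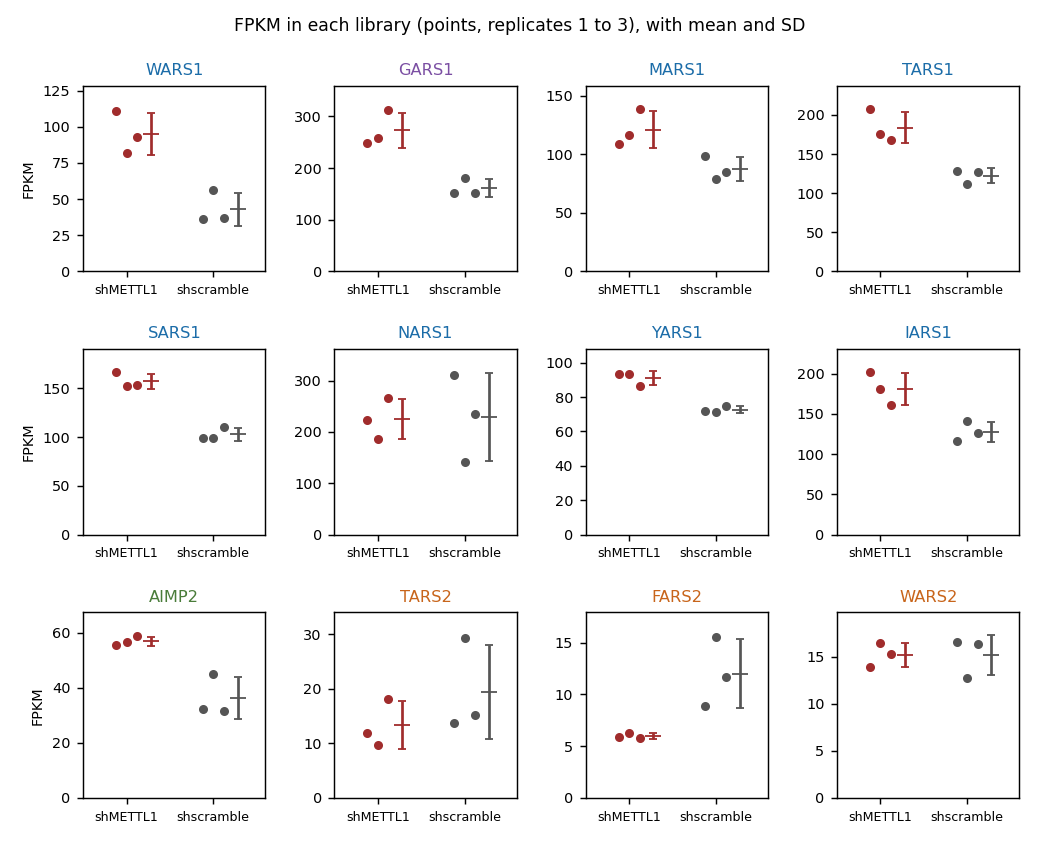
FPKM (vertical axes from 0) of the 11 called genes and of WARS2 in each of the 3 shMETTL1 and 3 shscramble libraries, with the mean and SD beside the points. WARS1, GARS1, SARS1 and AIMP2 show separate groups, whereas NARS1, TARS2 and WARS2 overlap between the groups in FPKM.

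CARS1, AARS1 and FARSA fell just outside the threshold. CARS1, the cysteine enzyme, was at 42.7, 41.3 and 47.4 FPKM in shMETTL1 libraries, against 35.1, 27.3 and 33.4 FPKM in shscramble libraries (log2 fold change of the counts 0.43 ± 0.12 SE, edgeR adjusted p = 0.0508). AARS1, the alanine enzyme, was at 204, 219.9 and 211 FPKM in shMETTL1 libraries, against 157, 174 and 157 FPKM in shscramble libraries (0.34 ± 0.10, adjusted p = 0.0542). Both had groups that did not overlap in FPKM. FARSA, the catalytic subunit of the cytosolic phenylalanine enzyme, was at 77.7, 62.5 and 94.8 FPKM in shMETTL1 libraries, against 49.4, 70.6 and 49.5 FPKM in shscramble libraries, and the second shscramble library lay inside the shMETTL1 range (0.50 ± 0.16, adjusted p = 0.0697). FARSB, the other subunit of the same enzyme, was at 39.0, 31.7 and 36.6 FPKM in shMETTL1 libraries, against 20.8, 37.8 and 33.9 FPKM in shscramble libraries (0.18 ± 0.15, adjusted p = 0.526).

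The remaining cytosolic genes gave no call. QARS1, the glutamine enzyme, went the other way in FPKM, at 69.9, 75.3 and 56.6 in shMETTL1 libraries, against 76.5, 94.5 and 89.7 in shscramble libraries. The FPKM groups did not overlap, while the log2 fold change of the counts was -0.25 ± 0.14 SE (edgeR adjusted p = 0.289). The others were EPRS1, one protein that charges both glutamate and proline tRNA, HARS1 (histidine), VARS1 (valine), LARS1 (leucine) and RARS1 (arginine), with log2 fold changes of the counts from -0.05 for RARS1 to 0.24 for EPRS1. Over the 17 cytosolic genes 14 had a positive log2 fold change, with a median of 0.40, beside a median of -6.74e-05 over all genes tested, of which 49.99% were positive. By limma on FPKM 16 of 17 were positive, with a median of 0.32, beside 0.02 over all genes. Without shscramble replicate 2 the median by edgeR was 0.35. In FPKM 9 of the 17 had a shMETTL1 group above and 1 a group below the shscramble group without overlap, against 10.5% and 9.33% of all genes.

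The cytosolic and dual enzymes were also read by membership of the multi-synthetase complex. Of the 12 enzymes outside it 6 were called higher (GARS1, NARS1, SARS1, TARS1, WARS1 and YARS1), all 12 had a positive log2 fold change, and the median was 0.44. Of the 7 within it (EPRS1, IARS1, KARS1, LARS1, MARS1, QARS1 and RARS1) IARS1 and MARS1 were called higher, 4 were positive, and the median was 0.04. By limma on FPKM 12 of 12 were positive outside the complex, with a median of 0.42, and 6 of 7 within it, with a median of 0.15. The difference between these groups was not tested. The enzymes also fall into structural classes I and II, which differ in the fold of the catalytic domain. Of 9 cytosolic and dual enzymes of class I 4 were called higher, and of 9 of class II 4 were, EPRS1 holding a domain of each class and being left out of this count.

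The dual genes did not move alike. GARS1 encodes the glycine enzyme of both compartments through alternative start codons. It was at 249, 258 and 313 FPKM in shMETTL1 libraries, against 152, 181 and 151 FPKM in shscramble libraries, with no overlap. GENCODE places it on chromosome 7 at 30594681 to 30634033 (GRCh38, plus strand). The log2 fold change of the counts was 0.80 ± 0.11 SE (edgeR adjusted p = 0.000337; 2.72e-05 to 0.00426 when each library was left out), and on FPKM it was 0.76 by limma (adjusted p = 0.0808; 1.54e-11 to 0.148 over all alternatives). KARS1, which makes both lysine enzymes by alternative splicing, was at 61.3, 62.3 and 57.3 FPKM in shMETTL1 libraries, against 52.4, 64.5 and 58.4 FPKM in shscramble libraries. Its groups overlapped and its log2 fold change was 0.04 ± 0.11 SE (adjusted p = 0.874). Since values are per gene, the cytosolic and mitochondrial forms of either enzyme cannot be told apart here.

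Of the scaffold genes, AIMP2, which holds the inner part of the complex together, was at 55.6, 56.7 and 58.7 FPKM in shMETTL1 libraries, against 32.5, 44.9 and 31.6 FPKM in shscramble libraries (log2 fold change of the counts 0.59 ± 0.15 SE, edgeR adjusted p = 0.0287). EEF1E1, also known as AIMP3, was at 26.3, 23.6 and 23.8 FPKM in shMETTL1 libraries, against 14.6, 15.98 and 18.4 FPKM in shscramble libraries (0.57 ± 0.22, adjusted p = 0.126). Both genes had shMETTL1 values that were all above those of shscramble. AIMP1 was at 30.7, 32.6 and 47.1 FPKM in shMETTL1 libraries, against 65.9, 34.1 and 51.7 FPKM in shscramble libraries, with overlapping groups (-0.10 ± 0.18, adjusted p = 0.787). Of the AIMP2 exon bases 28.9% overlap EIF2AK1, a kinase gene that was not called (log2 fold change -0.18 ± 0.12 SE, adjusted p = 0.403), and 18.7% of the EEF1E1 exon bases are shared with an annotated readthrough transcript.

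The mitochondrial enzymes called lower were both of class II. FARS2 (chromosome 6 at 5261044 to 5829192, GRCh38, plus strand), a single-subunit phenylalanine enzyme, was at 5.85, 6.31 and 5.77 FPKM in shMETTL1 libraries, against 8.84, 15.5 and 11.7 FPKM in shscramble libraries. The groups did not overlap, the shMETTL1 values were close together (5.98 ± 0.295 FPKM, SD, n = 3) and the shscramble values were spread (11.999 ± 3.34 FPKM, SD, n = 3), with a log2 fold change of the counts of -0.94 ± 0.24 SE (edgeR adjusted p = 0.0272; 0.0268 to 0.0943 when each library was left out). TARS2 (chromosome 1 at 150487364 to 150507609, GRCh38, plus strand), the threonine enzyme, was at 11.97, 9.74 and 18.2 FPKM in shMETTL1 libraries, against 13.8, 29.3 and 15.3 FPKM in shscramble libraries, and these groups overlapped. Its estimated counts were 102, 90.2 and 80.4 in shMETTL1 libraries, against 115, 188 and 146 in shscramble libraries, which did not overlap (-0.77 ± 0.18, edgeR adjusted p = 0.0215; 0.00935 to 0.0992 when each library was left out).

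The other 14 mitochondrial genes were not called, with log2 fold changes of the counts from -0.34 for SARS2 to 0.46 for MARS2. CARS2, the mitochondrial cysteine enzyme, was at 33.8, 32.5 and 31.0 FPKM in shMETTL1 libraries, against 19.9, 26.5 and 20.5 FPKM in shscramble libraries, without overlap (0.31 ± 0.14, edgeR adjusted p = 0.205). MARS2, the methionine enzyme, was at 9.70, 11.6 and 8.16 FPKM in shMETTL1 libraries, against 5.58, 8.83 and 6.47 FPKM in shscramble libraries (0.46 ± 0.19, adjusted p = 0.172; 0.0424 without shscramble replicate 2). CARS2 and MARS2 were the mitochondrial genes that edgeR placed higher before adjustment (p under 0.05), as it did 10.7% of all genes. SARS2, the serine enzyme, was at 9.37, 13.6 and 17.0 FPKM in shMETTL1 libraries, against 22.1, 19.3 and 14.1 FPKM in shscramble libraries (-0.34 ± 0.21, adjusted p = 0.367), and 46.2% of its exon bases are shared with an overlapping annotated gene. Over the 16 mitochondrial genes 7 log2 fold changes were positive and the median was -0.03, by edgeR and by limma alike, or 0.02 by edgeR without shscramble replicate 2.

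WARS2, IARS2, NARS2 and YARS2 are the mitochondrial counterparts of called cytosolic enzymes. WARS2 was at 13.9, 16.4 and 15.2 FPKM in shMETTL1 libraries, against 16.6, 12.8 and 16.3 FPKM in shscramble libraries (log2 fold change of the counts -0.06 ± 0.18 SE). IARS2 was at 42.05, 38.3 and 33.1 FPKM in shMETTL1 libraries, against 30.5, 36.6 and 37.3 FPKM in shscramble libraries (0.08 ± 0.12). Their groups overlapped. NARS2 was at 10.7, 22.0 and 15.5 FPKM in shMETTL1 libraries, against 14.5, 13.4 and 32.1 FPKM in shscramble libraries (-0.11 ± 0.18). YARS2, the mitochondrial gene with the promoter match shown above, was at 11.3, 17.3 and 8.92 FPKM in shMETTL1 libraries, against 6.91, 14.2 and 9.58 FPKM in shscramble libraries (0.11 ± 0.21). Both of these overlapped as well, and the edgeR adjusted p of the 4 genes lay between 0.737 and 0.879.

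Setting the enzymes of one amino acid side by side, 17 pairs of a cytosolic and a mitochondrial gene were compared, with FARS2 standing against both FARSA and FARSB, and EPRS1 against both EARS2 and PARS2. In 16 of the 17 pairs the log2 fold change of the counts (edgeR) was higher for the cytosolic gene than for the mitochondrial gene. The exception was EPRS1 and EARS2 at 0.24 and 0.25. The gap was widest for FARSA against FARS2 (0.50 and -0.94), TARS1 against TARS2 (0.50 and -0.77), FARSB against FARS2 (0.18 and -0.94) and WARS1 against WARS2 (1.02 and -0.06). It was narrow for MARS1 and MARS2 (0.52 and 0.46), CARS1 and CARS2 (0.43 and 0.31) and LARS1 and LARS2 (-0.04 and -0.11). By limma on FPKM the exceptions differed. CARS1 was then below CARS2 (0.46 and 0.54) and MARS1 below MARS2 (0.47 and 0.48), while EPRS1 was above EARS2 (0.21 and 0.17). No test of a pair was made.

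**Figure D4:**
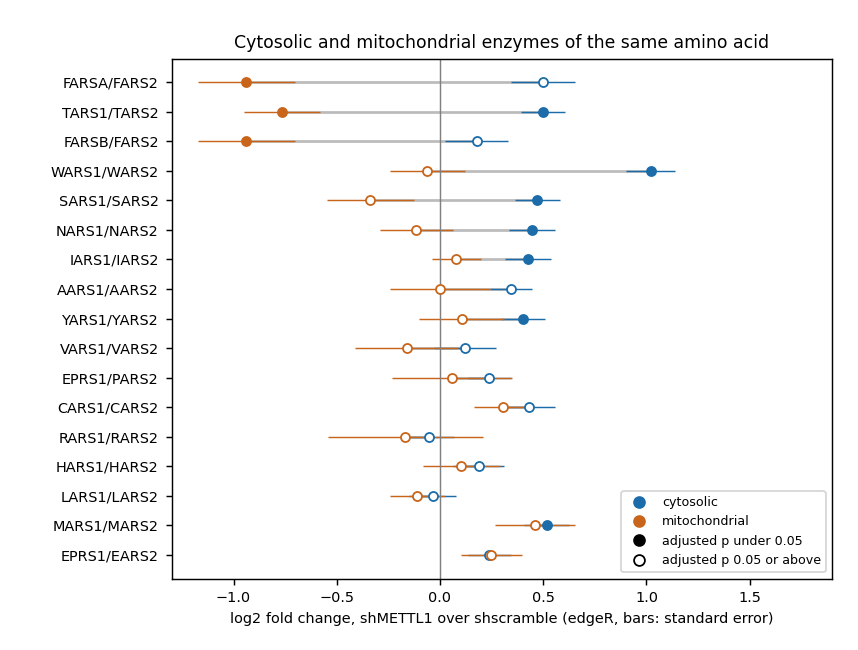
Log2 fold change of the estimated counts, shMETTL1 over shscramble, for the cytosolic and the mitochondrial gene of each of 17 pairs (edgeR; bars are standard errors; filled points have an adjusted p under 0.05). The phenylalanine, threonine and tryptophan pairs are farthest apart, and the EPRS1 and EARS2 points nearly coincide.

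The ratio of cytosolic to mitochondrial FPKM was also taken within each library. For WARS1 over WARS2 it was 7.99, 4.98 and 6.08 in shMETTL1 libraries, against 2.17, 4.38 and 2.26 in shscramble libraries. For FARSA over FARS2 it was 13.3, 9.90 and 16.4 in shMETTL1 libraries, against 5.58, 4.56 and 4.24 in shscramble libraries. In both pairs the shMETTL1 ratios were all above those of shscramble. The same held for FARSB over FARS2, for IARS1 over IARS2, at 4.80, 4.72 and 4.86 in shMETTL1 libraries against 3.81, 3.86 and 3.39 in shscramble libraries, and for SARS1 over SARS2, at 17.8, 11.3 and 8.99 in shMETTL1 libraries against 4.49, 5.15 and 7.84 in shscramble libraries. The other 12 pairs overlapped, and in none did the ratio lie lower in all shMETTL1 libraries. By estimated counts the ratio did not overlap in 7 pairs, higher in each. The FARSA and FARSB pairs share FARS2 and are not separate cases. Among single genes the FPKM groups did not overlap for 10.5% (higher) and 9.33% (lower). No such share was computed for ratios of gene pairs, so the number of separate pairs has no background here.

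Most cytosolic genes were at a higher level than the mitochondrial ones. Over the 6 libraries NARS1 (227 FPKM), GARS1 (217 FPKM), AARS1 (187 FPKM) and IARS1 (155 FPKM) had the highest means, and AARS2 (3.73 FPKM), PARS2 (3.95 FPKM) and RARS2 (4.62 FPKM) the lowest. Of the 19 cytosolic and dual genes 16 were above the highest mitochondrial gene, IARS2 (36.3 FPKM), and the other 3 were VARS1, HARS1 and FARSB. By the means of each group 17 of the 19 were above IARS2 in shMETTL1 libraries and 15 in shscramble libraries. The 17 cytosolic genes summed to 1900, 1769 and 1872 FPKM in shMETTL1 libraries, against 1542, 1387 and 1485 FPKM in shscramble libraries, without overlap. The 16 mitochondrial genes summed to 222, 241 and 219 FPKM in shMETTL1 libraries, against 211, 249 and 241 FPKM in shscramble libraries, with overlap. The ratio of these sums was 8.54, 7.35 and 8.54 in shMETTL1 libraries, against 7.31, 5.57 and 6.16 in shscramble libraries, or 8.14 ± 0.687 against 6.35 ± 0.887 (SD, n = 3 each). The log2 ratio of the mean cytosolic sums was 0.33, and 0.29 without shscramble replicate 2.

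**Figure D5:**
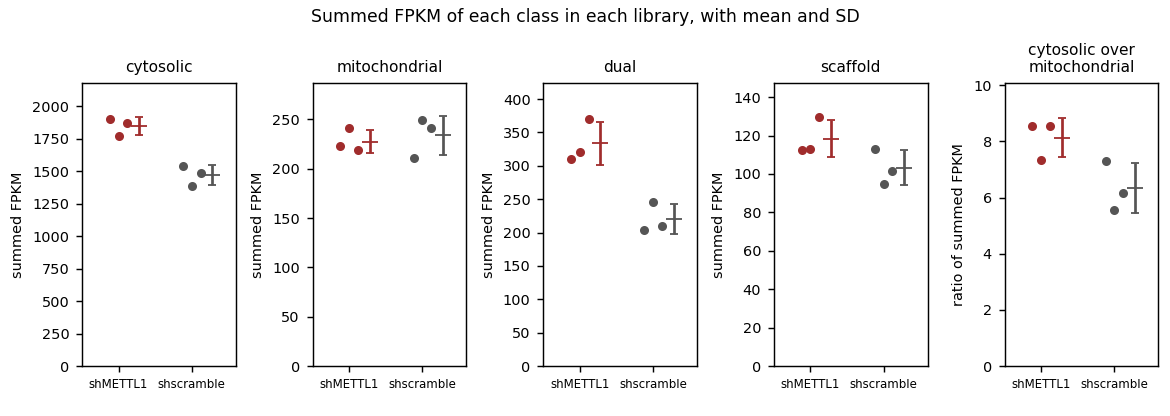
Summed FPKM (vertical axes from 0) of the cytosolic, mitochondrial, dual and scaffold genes, and the ratio of the cytosolic to the mitochondrial sum, in each of the 3 shMETTL1 and 3 shscramble libraries, with the mean and SD beside the points. The cytosolic sums are separate (1769 to 1900 in shMETTL1, 1387 to 1542 in shscramble) and the mitochondrial sums overlap, and the lowest shMETTL1 ratio (7.35) is just above the highest shscramble ratio (7.31).

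Other lists of genes were counted for comparison. Of 30 tested genes of the amino acid response, a list of ATF4 and genes it is known to control that holds no synthetase, 22 were called higher by edgeR and none lower, with a median log2 fold change of 0.70. Among all genes tested 2.68% were called higher and 3.65% lower. The 4 with the smallest p were VEGFA, an angiogenic growth factor (1.35 ± 0.11 SE, adjusted p = 4.95e-06), PSAT1, an enzyme of serine synthesis (1.00 ± 0.12, adjusted p = 0.000161), SESN2, a leucine sensor (1.63 ± 0.21, adjusted p = 0.000325), and CHAC1, which degrades glutathione (1.83 ± 0.24, adjusted p = 0.000387). This list was written with earlier results of these data known, and its direction is no independent evidence. By limma on FPKM 1 of the 30 was called, where 0.123% of all genes were.

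Genes that act beside the synthetases in translation gave no edgeR call. Of 7 cytosolic elongation factor genes, which include EEF1A1, the carrier of charged tRNA to the ribosome, 1 was higher and none lower at an unadjusted p of under 0.05 (10.7% and 12.1% of all genes), and the median log2 fold change was 0.12. Of 11 genes of mitochondrial translation, including its elongation factor TUFM, 1 was lower and none higher at that p, with a median of -0.20. Of 12 genes of tRNA loading accessories, such as the editing enzyme DTD1 and the GATB and GATC subunits of the enzyme that makes mitochondrial glutaminyl-tRNA, none passed that p in either direction, with a median of 0.07. By limma all of these were also without a call, and by DESeq2 the counts were likewise 0.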

How the data were processed

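RNA from 3 shMETTL1 and 3 shscramble LNCaP-AI libraries was analysed from 1 table per library. FPKM values deposited by the authors are corrected for transcript length and depth. The authors deposited estimated counts too, few of them whole (within 0.001 in 1.796% to 2.51% of values above 0). They may have been scaled, since totals hardly differed, so no counting interval was computed. The submitters' notes name cutadapt 1.9.3, HISAT2 2.0.4, Cufflinks, Cuffdiff and hg19. Whether counting used strand is not given in the sources used here.

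Counts were rounded and tested with edgeR 4.0.16 in R 4.3.3 (TMM, filterByExpr, quasi-likelihood, 11248 genes, no block). Alternatives were DESeq2 1.42.0, other scalings, no filter, limma 3.58.1 with trend and robust prior on log2(FPKM + 0.5) at a mean FPKM of at least 0.5 (12156 genes) or with pseudocounts of 0.1 and 1, a replicate block, and leaving out each library. All p-values are two-sided. Classes and lists were described by counts and medians without a test. Values per library are given in the text for called genes, their partners in the other compartment, dual and scaffold genes, and genes at an unadjusted p under 0.05 by limma, with up to 4 called genes per context list. The members, lists, motif and choice of the count test as the main test were settled with earlier results of these data known, among them that the count test called more genes than the FPKM test. A table of gene names gave a symbol for 95.7% of the identifiers, and positions and exon overlaps are those of GENCODE release 29 (GRCh38). One gene of the luminal marker list is not reported here and was left out of its sum.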

Additional observations from a re-analysis of the deposited data

How the results depend on the processing

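Calls depended on the values tested and on single libraries. The 9 higher and 2 lower calls became 0 and 0 by limma on log2(FPKM + 0.5), with a pseudocount of 0.1 or 1, or without the filter on low values, so that cytosolic higher calls (7), mitochondrial lower calls (2), the dual call (1) and the scaffold call (1) were all 0. In a fit chosen after seeing the data, limma without shscramble replicate 2, 3 genes were called higher (1 cytosolic, 1 dual, 1 scaffold) and 0 lower. Leaving out each library in edgeR, which called 2.37% to 17.5% of all genes, gave 2 to 12 higher and 0 to 2 lower calls, of which cytosolic higher 1 to 9, mitochondrial higher 0 to 1, mitochondrial lower 0 to 2 and scaffold higher 0 to 1. The cytosolic median was 0.32 by limma on FPKM, 0.35 by limma without shscramble replicate 2 and 0.32 to 0.42 in edgeR with a library left out. The log2 ratio of summed levels was 0.40 for cytosolic and 0.34 for scaffold genes by counts, against 0.33 and 0.20 by FPKM. DESeq2 called 11 genes higher and 2 lower, and median-ratio scaling gave the same 9 and 2. The called genes kept their direction in 16 of 16 alternatives, except NARS1 in 15. With the replicate number as a block edgeR called 1015 genes in place of 712, and 11 of the 38 genes higher and 2 lower, adding CARS1 and FARSA. Deviations of same-numbered libraries correlated at 0.04, 0.12 and -0.04, and those of differently numbered libraries at -0.10 to 0.06. Such weak correlations show no clear pairing by number and cannot exclude one.

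Some genes, most of them near 0, changed sign, and the cause was not tested. By limma on FPKM these were LARS1 (0.0536, and 0.0539 and 0.0532 at pseudocounts of 0.1 and 1), RARS1 (0.15), HARS2 (-0.0661, -0.0689 and -0.0628 likewise) and WARS2 (0.0019, 0.0021 and 0.0016 likewise). By limma on FPKM without shscramble replicate 2 they were NARS1 (-0.27; 0.36 by edgeR without that library), RARS1 (0.0911), AARS2 (0.0057), HARS2 (-0.0868) and RARS2 (0.24). AARS2 turned to 0.00998 with library totals alone and to 0.0067 without the count filter. With a library left out the edgeR values ran from -0.13 to 0.0189 for LARS1, -0.14 to 0.0049 for RARS1, -0.0229 to 0.26 for VARS1, -0.15 to 0.14 for AARS2, -0.0155 to 0.22 for HARS2, -0.00077 to 0.15 for IARS2, -0.18 to 0.0080 for LARS2, -0.0452 to 0.22 for PARS2, -0.51 to 0.0951 for RARS2, -0.48 to 0.068 for VARS2, -0.19 to 0.0348 for WARS2, -0.0382 to 0.25 for YARS2 and -0.29 to 0.0167 for AIMP1.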
